A study of Equus caballus with 15 samples.

Results

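The 9 genes described here encode enzymes and binding proteins that keep energy, oxygen and acid in balance in working muscle: the creatine kinases CKM, CKMT2 and CKB, the adenylate enzymes AK1, AMPD1 and AMPD3, myoglobin (MB), and the carbonic anhydrases CA3 and CA2. They were chosen by symbol from a table of 30297 horse genes, and each symbol matched 1 row. All 9 passed the filter on low counts that 15343 genes passed.

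RNA was sequenced from the superficial digital flexor (SDF) muscle of the front limb of 5 euthanised horses (Equus caballus), numbered 14, 16, 17, 18 and 20. One 4 mm punch per horse, spanning muscle and the tendon on it, was frozen and sectioned into 3 zones of about 200 micrometres each. The first group is the myotendinous junction (MTJ) zone, which also contains muscle and tendon, the second is muscle, and the third is tendon, with 5 libraries in each. The horses were 4 mares and 1 gelding aged 5 to 7 years. None carried a stated genetic change or drug treatment. Horses 16, 18 and 20 are labelled trained and horse 17 sedentary, while horse 14 is labelled sedentary for muscle but trained for MTJ and tendon, so training was not compared. The 3 comparisons between tissues share libraries and are not independent.

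Creatine kinases move phosphate between ATP and creatine. The cytosolic muscle form CKM and the mitochondrial sarcomeric form CKMT2 serve contracting fibres, and CKB is the cytosolic form known best from brain and smooth muscle. Adenylate kinase rebuilds ATP from ADP and leaves AMP, which AMP deaminase converts to IMP. Myoglobin binds oxygen inside slow and oxidative fibres, CA3 is an abundant carbonic anhydrase of slow fibres with low catalytic activity, and CA2 is a fast carbonic anhydrase known from red cells and osteoclasts.

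Library totals ran from 15304218 to 19295339 counts. Slow- and fast-fibre markers were present in muscle, with summed levels of 89522 to 147911 and 42870 to 76112 CPM (counts scaled to the TMM-adjusted library total), and tenocyte markers summed to 763 to 3010 CPM in MTJ, 294 to 372 CPM in muscle and 10955 to 18816 CPM in tendon. The tendon libraries were not equally free of muscle RNA. Over 217 genes that the authors listed as muscle references, the median level in tendon was 13.7%, 17.6% and 11.7% of the same horse's muscle in horses 14, 16 and 17, against 0.332% in horse 18 and 2.57% in horse 20. In these bulk sections, fewer cells of a type and less RNA per cell cannot be told apart.

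Of the 9 genes, 8 were higher in muscle than in tendon, and those 8 were higher in MTJ than in tendon too. CKB was the exception in both. Over all genes tested, 34.6% were called higher in muscle than in tendon and 32.8% higher in MTJ than in tendon. In muscle, levels per length (TPM, from counts divided by the deposited gene length) placed MB at rank 4 of all genes, CKM at rank 5 and CA3 at rank 9. CKMT2 was at rank 73, AK1 at 219, AMPD1 at 294 and AMPD3 at 836, while CKB and CA2 lay far below, at 6893 and 7951. The 9 genes together took 3.07% ± 0.38 of all counts in MTJ, 3.73% ± 0.40 in muscle and 0.757% ± 0.625 in tendon (SD, n = 5 horses each).

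**Figure D1:**
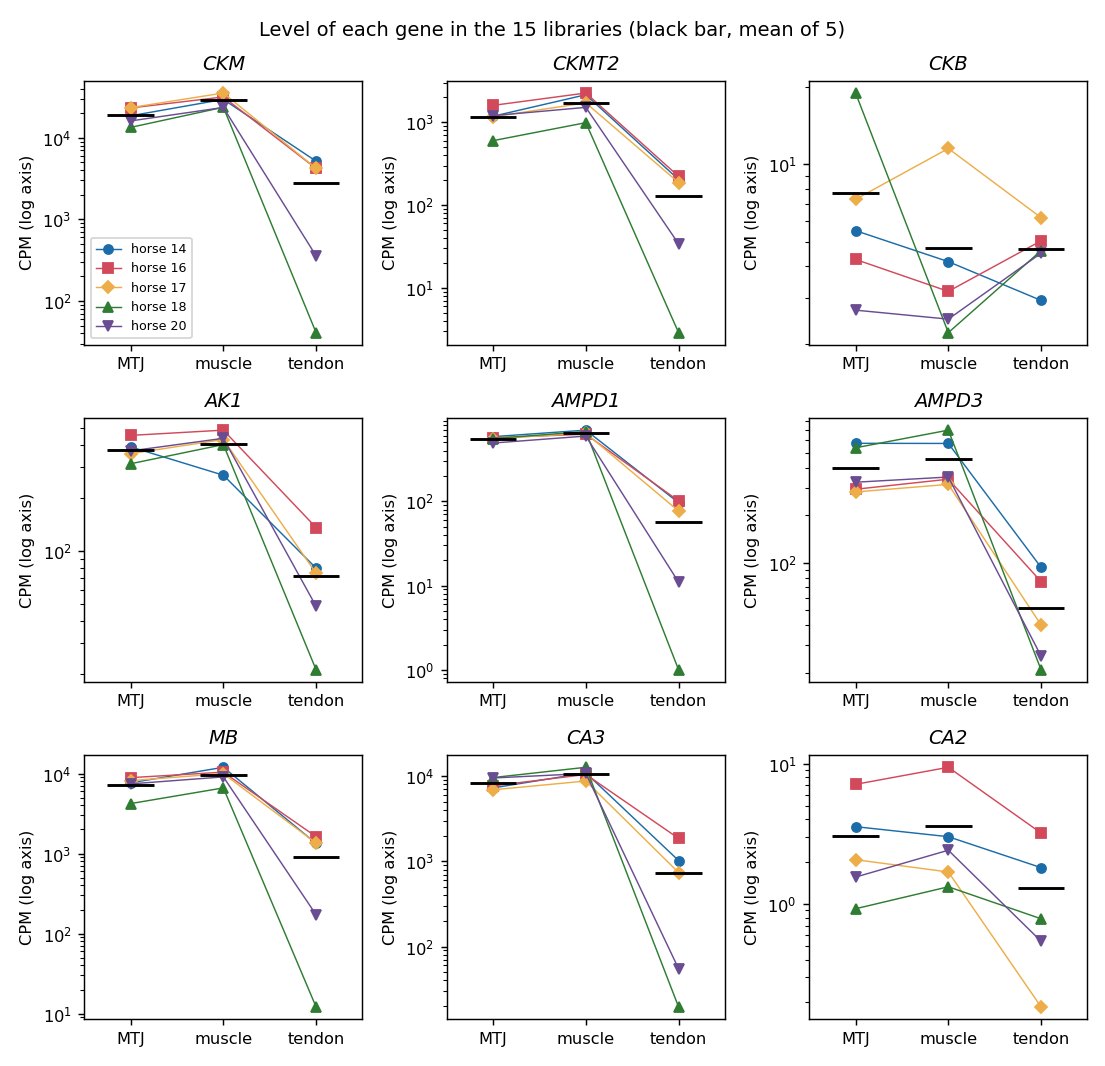
CPM of each gene (log axis) in MTJ, muscle and tendon, with one line and symbol per horse and a black bar at the mean of 5. For CKM, CKMT2, AK1, AMPD1, AMPD3, MB and CA3 every tendon value lies below every MTJ and muscle value, and horse 18 has the lowest tendon level; CKB and CA2 overlap between tissues.

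The muscle-type creatine kinase CKM (NCBI gene 100065641, chromosome 10) had 18590, 23197, 23412, 13406 and 16093 CPM in the MTJ of horses 14, 16, 17, 18 and 20, in that order here and below. In muscle it had 29529, 31670, 35370, 23660 and 23527 CPM, and in tendon 5166, 4208, 4223, 40.9 and 357 CPM. MTJ, muscle and tendon did not overlap in CPM, though the highest MTJ value (23412) was close to the lowest muscle value (23527). In TPM, MTJ (15681 to 25632) and muscle (19977 to 32735) overlapped. Of all genes tested, 1.02% had MTJ wholly below muscle in CPM. The tendon values split by horse, with horses 18 and 20 far below the others. CKM was higher in muscle than in tendon by 3.96 ± 0.92 on the log2 scale (SE; edgeR quasi-likelihood test, blocked by horse, Benjamini-Hochberg adjusted p = 0.00199), and higher in MTJ than in tendon by 3.33 ± 0.90 (adjusted p = 0.00600). When the tendon libraries of horses 14, 16 and 17 were left out, CKM was higher than in tendon by 7.32 in muscle and by 6.69 in MTJ.

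CKMT2 (NCBI gene 100073253, chromosome 14), which sits at the inner mitochondrial membrane of striated muscle, had 1180, 1597, 1165, 599 and 1201 CPM in MTJ. It had 2147, 2252, 1713, 987 and 1510 CPM in muscle, and 203, 222, 187, 2.88 and 34.1 CPM in tendon. Horse 18 was lowest in all 3 tissues. CKMT2 was higher in muscle than in tendon by 4.24 ± 0.70 on the log2 scale (edgeR, adjusted p = 0.000155), and higher in MTJ than in tendon by 3.65 ± 0.69 (adjusted p = 0.000521). Leaving out the same 3 tendon libraries, these were 6.73 and 6.12.

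The third creatine kinase, CKB (NCBI gene 100055201, chromosome 24), was scarce in every tissue. It had 5.51, 4.26, 7.30, 18.9 and 2.70 CPM in MTJ, from 76, 58, 113, 328 and 40 counts. In muscle it had 4.17, 3.20, 11.5, 2.21 and 2.49 CPM, from 54, 38, 150, 30 and 32 counts. In tendon it had 2.95, 5.03, 6.19, 4.61 and 4.50 CPM, from 78, 121, 168, 147 and 133 counts. Muscle was above tendon in 2 of 5 horses in CPM but below it in each horse in TPM (means of 4.59 and 11.6). The 3 tissues overlapped, with 1 high MTJ library (horse 18) and 1 high muscle library (horse 17). The difference between muscle and tendon was -0.12 ± 0.45 on the log2 scale (edgeR, adjusted p = 0.816), that between MTJ and tendon was 0.55 ± 0.45 (adjusted p = 0.296), and that between MTJ and muscle was 0.67 ± 0.47 (adjusted p = 0.460). Without horse 18, the difference between MTJ and muscle was 0.03. The size and call of the muscle and tendon difference depend on scaling: with plain library totals in place of the TMM factors (trimmed mean of M-values, a correction for composition) it was -1.35 and passed the test (adjusted p = 0.0164), while the median of all genes moved to -1.36 from -0.13. Without the horse block it stood at 0.02.

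Shares within the creatine kinase family do not depend on library scaling. CKB made up 0.0498% ± 0.0561 of the summed creatine kinase signal per length in MTJ, 0.0160% ± 0.0104 in muscle and 2.40% ± 4.50 in tendon (SD, n = 5 each). Its share in tendon was 0.0607%, 0.125%, 0.155%, 10.4% and 1.25% by horse, so the mean in tendon rests on horse 18 and, less, on horse 20. The share was lower in muscle than in tendon in 5 of 5 horses, with p = 0.0625 by an exact two-sided sign-flip permutation test, which is the smallest p that 5 horses allow, and 0.141 after adjustment over 9 such tests. The mean difference was -2.39 percentage points, and -0.38 without horse 18. The CKMT2 share was 6.12% ± 1.22 in MTJ, 6.05% ± 1.33 in muscle and 5.93% ± 2.05 in tendon.

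Adenylate kinase AK1 (NCBI gene 100070413, chromosome 25) had 389, 452, 356, 312 and 369 CPM in MTJ. It had 269, 484, 428, 401 and 435 CPM in muscle, and 79.9, 136, 74.8, 21.2 and 48.6 CPM in tendon. In CPM, tendon did not overlap with the others, while MTJ and muscle did, and only horse 14 had more AK1 in MTJ than in muscle. In TPM, AK1 was higher in MTJ than in muscle in horses 14, 16 and 18 and lower in horses 17 and 20. The tendon of horse 16 (409 TPM) then exceeded the muscle of horse 14 (330 TPM). AK1 was higher in muscle than in tendon by 2.64 ± 0.32 on the log2 scale (edgeR, adjusted p = 1.10e-05), and higher in MTJ than in tendon by 2.52 ± 0.31 (adjusted p = 2.1e-05). Without TMM factors these were 1.41 and 1.53. A separate unnamed row annotated as the same isoenzyme held 1 to 23 counts per library, so reads could be split between the 2 rows.

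AMP deaminase AMPD1, the isoform of skeletal muscle (NCBI gene 100065374, chromosome 5), had 586, 569, 556, 556 and 492 CPM in MTJ. It had 700, 627, 645, 673 and 596 CPM in muscle and 96.4, 101, 76.8, 1.00 and 11.0 CPM in tendon. In CPM every muscle value was above every MTJ value, as for 1.02% of all genes tested. In TPM, MTJ (338 to 454) and muscle (353 to 420) overlapped. The lowest tendon level, in horse 18, came from 32 counts. AMPD1 was higher in muscle than in tendon by 3.93 ± 0.82 on the log2 scale (edgeR, adjusted p = 0.000936), and higher in MTJ than in tendon by 3.68 ± 0.81 (adjusted p = 0.00163). They were 7.03 and 6.80 when the tendon libraries of horses 14, 16 and 17 were left out.

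AMPD3 (NCBI gene 100055812, chromosome 7), the isoform described first from red cells, had 575, 293, 282, 539 and 325 CPM in MTJ. It had 574, 340, 315, 697 and 351 CPM in muscle and 93.5, 75.8, 40.2, 20.8 and 25.5 CPM in tendon. Horses 14 and 18 were high in both MTJ and muscle. AMPD3 was higher in muscle than in tendon by 3.21 ± 0.37 on the log2 scale (edgeR, adjusted p = 7.14e-06), and higher in MTJ than in tendon by 3.02 ± 0.36 (adjusted p = 1.6e-05). Without TMM factors the difference between muscle and tendon was 1.98. The globin genes HBA and HBB, which define red cells, had 0 to 3 and 0 to 7 counts per library, and EPB42 had 3 to 41. The 10 erythrocyte markers in the table summed to 17.6 to 25.02 CPM in MTJ, 17.1 to 30.6 CPM in muscle and 18.7 to 24.7 CPM in tendon, of which the mitochondrial iron carrier SLC25A37, present in many cell types, made up 16.6 to 23.9, 16.4 to 29.9 and 17.6 to 24.2 CPM.

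Per length, AMPD3 made up 23.4% ± 5.8 of the AMPD1 and AMPD3 signal in MTJ, 22.6% ± 5.6 in muscle and 42.3% ± 29.1 in tendon (SD, n = 5 each). By horse, the share in tendon was 29.3%, 24.3%, 18.3%, 89.9% and 49.8%. It was lower in muscle than in tendon in 5 of 5 horses (exact sign-flip permutation test, p = 0.0625; 0.141 after adjustment over 9 tests). The mean difference was -19.7 percentage points, and -9.86 without horse 18. The gap was wide in horses 18 and 20 and narrow in the other 3, where the share in muscle was 26.0%, 18.9% and 17.3%.

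Myoglobin (MB, NCBI gene 100054434, chromosome 28) had 7656, 8886, 8159, 4214 and 7427 CPM in MTJ. It had 11979, 10412, 9990, 6617 and 9086 CPM in muscle, and 1338, 1626, 1354, 12.1 and 172 CPM in tendon. MTJ was below muscle in 5 of 5 horses, and horse 18 was lowest in each tissue. MB was higher in muscle than in tendon by 3.99 ± 0.85 on the log2 scale (edgeR, adjusted p = 0.00102), and higher in MTJ than in tendon by 3.55 ± 0.83 (adjusted p = 0.00238). With the same 3 tendon libraries left out as for AMPD1 they were 7.09 and 6.64.

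CA3 (NCBI gene 100050125, chromosome 9) had 7286, 7704, 6924, 9637 and 9532 CPM in MTJ. It had 10943, 10481, 8781, 12729 and 10762 CPM in muscle and 1022, 1861, 739, 19.5 and 54.8 CPM in tendon. In muscle, horse 18 had the highest CA3 level but the lowest MB and CKMT2 levels. CA3 was higher in muscle than in tendon by 4.32 ± 1.00 on the log2 scale (edgeR, adjusted p = 0.00182), and higher in MTJ than in tendon by 3.97 ± 0.99 (adjusted p = 0.00362). Leaving out the same 3 tendon libraries as for CKM, the differences were 8.47 for muscle and 8.08 for MTJ, the widest of the 9 genes in that fit.

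CA2 (NCBI gene 100050059, chromosome 9) was scarce, at TPM rank 8675 of all genes in MTJ, 7951 in muscle and 11635 in tendon. It had 3.55, 7.12, 2.07, 0.924 and 1.55 CPM in MTJ, 3.01, 9.42, 1.69, 1.32 and 2.41 CPM in muscle, and 1.81, 3.20, 0.184, 0.784 and 0.542 CPM in tendon. Horse 16 was highest in all 3 tissues, and the lowest tendon level, in horse 17, came from 5 counts. The tissues overlapped, but in CPM tendon was below both MTJ and muscle in 5 of 5 horses. In TPM, tendon was above both in horse 14 (3.87, against 3.43 in MTJ and 2.46 in muscle). The same held in horse 18 (1.98, against 1.13 and 1.24), while tendon was below both in horses 16, 17 and 20. CA2 was higher in muscle than in tendon by 1.50 ± 0.35 on the log2 scale (edgeR, adjusted p = 0.00209), and higher in MTJ than in tendon by 1.31 ± 0.35 (adjusted p = 0.00566). Neither call held without TMM factors (0.28, adjusted p = 0.471, and 0.31, adjusted p = 0.425) or without the horse block (1.46, adjusted p = 0.0819, and 1.22, adjusted p = 0.148).

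CA2 made up 0.0195% ± 0.0164 of the CA2 and CA3 signal per length in MTJ, 0.0168% ± 0.0158 in muscle and 0.524% ± 0.818 in tendon. By horse, the share in tendon was 0.0878%, 0.0851%, 0.0123%, 1.95% and 0.487%. It was lower in muscle than in tendon in 5 of 5 horses (exact sign-flip permutation test, p = 0.0625; 0.141 after adjustment over 9 tests), by a mean of -0.51 percentage points, and of -0.15 without horse 18. Macrophage and osteoclast markers summed to 181 to 317 CPM in MTJ, 71.0 to 179 CPM in muscle and 386 to 574 CPM in tendon, in the opposite order to the CA2 level, and their part in it was not tested.

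As a list, 8 of the 9 genes were called higher and 0 lower in muscle against tendon, where 34.6% of all genes tested were called higher and 38.8% lower. Their median log2 difference was 3.93, beside -0.13 for all genes and 3.76 for the authors' muscle reference genes. In MTJ against tendon 8 were called higher and 0 lower, where 32.8% of all genes were called higher and 34.5% lower, and the median was 3.33, beside -0.10 for all genes and 3.35 for the reference genes. CKM, CKMT2, AMPD1, MB and CA3, 5 of the 9, are themselves in the authors' reference list, which was drawn up on these samples and is no independent evidence of their direction. For 7 of the 9 genes every MTJ and every muscle value in CPM was above every tendon value. That held for 23.6% of all genes tested in MTJ against tendon and for 25.1% in muscle against tendon, while 21.9% and 26.6% of all genes lay wholly below tendon.

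The tendon level as a percentage of the same horse's muscle level differed among the genes. For CKM it was 17.5%, 13.3%, 11.9%, 0.173% and 1.52% by horse, above the reference median in 2 horses and below it in 3. For AK1 it was 29.7%, 28.0%, 17.5%, 5.29% and 11.2%, and for AMPD3 16.3%, 22.3%, 12.8%, 2.99% and 7.26%. AK1, AMPD3 and CKB stood above the reference median in 5 of 5 horses, CA2 in 4, and CKMT2 below it in 5 of 5. The reference list holds muscle-specific genes picked on these samples, and AK1, AMPD3, CKB and CA2 are not in it. Their place above its median is therefore no independent evidence. In horse 18, whose tendon library held the least muscle RNA, CKM, AMPD1, MB and CA3 were at 0.149% to 0.183% of their muscle level.

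**Figure D2:**
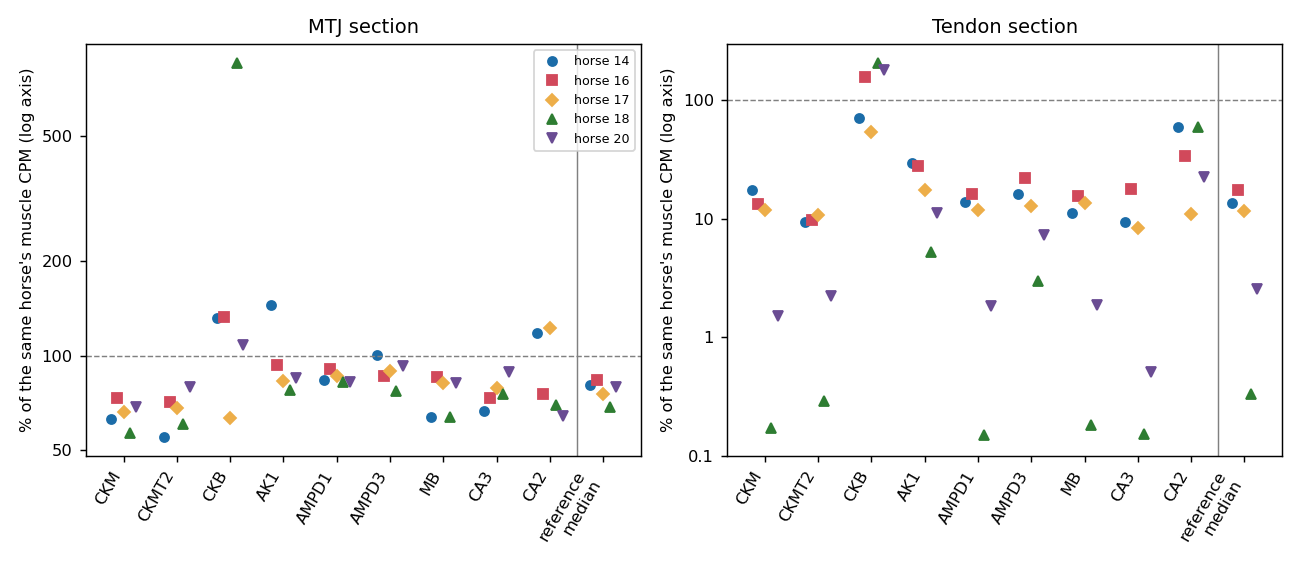
Level in the MTJ section (left) and the tendon section (right) as a percentage of the same horse's muscle CPM, on log axes, with one symbol per horse and, at the right of each panel, the median of 217 muscle reference genes; the dashed line marks 100%. In tendon, AK1, AMPD3 and CKB, which are not reference genes, lie above the reference median in each horse. The CKB value of horse 18 in MTJ, 858%, stands apart.

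Between MTJ and muscle the differences were small. CKM was at 63.0%, 73.2%, 66.2%, 56.7% and 68.4% of the muscle level, and CKMT2 at 55.0%, 70.9%, 68.0%, 60.7% and 79.5%, each below the reference median of 80.4%, 83.4%, 75.7%, 68.7% and 79.7% in 5 of 5 horses. AMPD1 was at 82.6% to 90.9%, AMPD3 at 77.2% to 100.2% and AK1 at 77.9% to 145%, each above it in 5 of 5. With all 15 libraries in the fit, 0 of the 9 genes passed the test in either direction, 0 had an unadjusted p under 0.05, and DESeq2 also called 0; 6.11% of all genes were called higher and 0.502% lower. The log2 differences there were -0.64 ± 0.78 for CKM (edgeR, adjusted p = 0.702), -0.58 ± 0.60 for CKMT2 (adjusted p = 0.637), -0.44 ± 0.72 for MB and -0.36 ± 0.82 for CA3, and -0.24 ± 0.70 for AMPD1. Without TMM factors, the differences of AK1, AMPD3 and CA2 stood at 0.12, 0.05 and 0.03 in place of -0.12, -0.18 and -0.19, while the median of all genes moved to 0.22. That of AMPD1 then stood at -2.4e-05, in place of -0.24.

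The fit with all 15 libraries takes its spread partly from the tendon libraries, and with only the 10 MTJ and muscle libraries the standard errors were smaller. In that fit, 5 of the 9 genes were lower in MTJ than in muscle, where 10.2% of all genes were called lower and 10.9% higher. CKM fell by 0.62 ± 0.09 on the log2 scale (edgeR, adjusted p = 0.000387), CKMT2 by 0.60 ± 0.08 (adjusted p = 0.000295), MB by 0.42 ± 0.09 (adjusted p = 0.00595), CA3 by 0.39 ± 0.08 (adjusted p = 0.00482) and AMPD1 by 0.23 ± 0.06 (adjusted p = 0.0201). DESeq2 on the same 10 libraries also called 5 lower. AMPD3 (-0.17, adjusted p = 0.0981), AK1, CKB and CA2 did not pass. Of the 217 muscle reference genes, 177 were called lower in this fit and 0 higher, with a median of -0.37, against -0.02 for all genes.

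The MTJ section holds both neighbours, so each MTJ level was also set against a mixture of the same horse's muscle and tendon. Muscle weights of 80.4%, 83.4%, 75.7%, 68.7% and 79.7% and tendon weights of 13.7%, 12.3%, 24.5%, 16.8% and 12.2% came from the medians over the authors' reference genes. CKM was below its mixture in 5 of 5 horses, with log2 ratios of -0.39, -0.22, -0.25, -0.28 and -0.22, and CKMT2 in 5 of 5, with -0.57, -0.25, -0.20, -0.18 and -0.01. Their means were -0.27 ± 0.07 (SE; limma, adjusted p = 0.163) and -0.24 ± 0.10 (adjusted p = 0.307), which did not pass. AK1, AMPD1 and AMPD3 were above the mixture in 5 of 5 horses, with means of 0.23 ± 0.13 (limma, adjusted p = 0.427), 0.11 ± 0.08 (adjusted p = 0.521) and 0.16 ± 0.08 (adjusted p = 0.366). Their lowest ratios were 0.06 (AK1, horse 17), 0.03 (AMPD1, horse 14) and 0.002 (AMPD3, horse 16), beside a median of 0.05 over all genes. Without horse 14 the mean was 0.10 for AK1 and -0.16 for CKMT2, and without horse 18 it was 0.07 for AMPD1. MB (-0.08 ± 0.09), CA3 (-0.04 ± 0.10) and CA2 (0.05 ± 0.14) had mixed signs, as had CKB (0.65 ± 0.44), whose horse 18 stood at 2.80. Without horse 14 the mean was 0.02 for CA3 and -0.02 for CA2.

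None of the 9 passed this test, in which 0.795% of all genes were called higher and 0.215% lower. CKM and CKMT2 had an unadjusted p under 0.05. The median log2 ratio to the mixture was 0.05 over all genes and -0.02 over the muscle reference genes. Among the muscle reference genes, 20 had a lower ratio to the mixture than CKM and 24 a lower one than CKMT2, while 213 lay below AK1, 205 below AMPD3 and 192 below AMPD1. The authors' deposited table of junction changes lists 7613 genes and gives -0.27 for CKM and -0.24 for CKMT2 (FDR 1.00 each), -0.08 for MB (FDR 0.936), -0.04 for CA3 (FDR 0.832), 0.23 for AK1 (FDR 0.263), 0.16 for AMPD3 (FDR 0.111) and 0.11 for AMPD1 (FDR 0.165). Each negative change named here had a higher FDR than each positive one. It cannot be told here whether that test could detect a lowering, so its FDR is not set against the limma values. Over the 7613 genes the median change was 0.07, and 2259 were below 0. CKM, CKMT2, MB and CA3 stood at percentiles 2.11, 2.64, 12.9 and 19.6, and AMPD1, AMPD3 and AK1 at 63.7, 77.5 and 88.5. CKB and CA2 are not among the genes in the authors' deposited table.

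**Figure D3:**
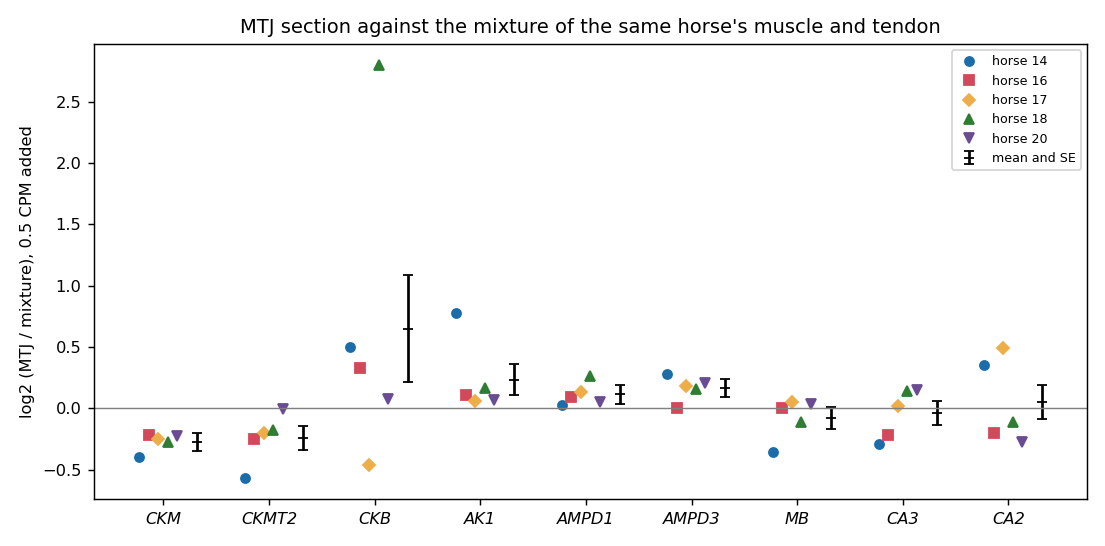
Log2 ratio of MTJ CPM to the CPM expected from a mixture of the same horse's muscle and tendon (0.5 CPM added to both), one symbol per horse, with the mean and SE of 5 horses in black. All 5 CKM and CKMT2 points lie below 0 and all 5 AK1, AMPD1 and AMPD3 points above it; CKB in horse 18 (2.80) and AK1 in horse 14 (0.78) stand apart.

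Muscle levels also differed among horses, alongside the myosin heavy chains that mark fibre types. Horse 18 had the highest CA3 level in muscle (12729 CPM) and the highest level of the slow myosin MYH7 (46625 CPM, against 28208 to 42649 CPM in the others), with the lowest level of the fast myosin MYH1 (67.2 CPM, against 388 to 647 CPM). Over the whole marker lists, however, the slow-fibre sum was highest in horse 14 (147911 CPM, against 128058 CPM in horse 18) and the fast-fibre sum was lowest there (42870 CPM, against 45630 CPM in horse 18). The muscle library of horse 18 had the highest AMPD3 level (697 CPM) and the lowest MB level (6617 CPM). In horse 14, where muscle AK1 was 269 CPM against 401 to 484 CPM in the other 4, the fast myosin MYH2 was also lowest (10378 CPM, against 12638 to 18278 CPM). The part of fibre type in these levels was not tested.

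Profiles over the 15 libraries were compared by root mean square distance between log2 values centred on each gene's mean, over 9087 genes. The genes most like CKM were SMTNL1 at 0.23, MB at 0.26 and the skeletal actin ACTA1 at 0.27. Those most like CA3 were ACTA1 at 0.44, MYOZ2, a Z-disc protein, at 0.46 and CASQ1, a calcium-binding protein of the sarcoplasmic reticulum, at 0.48. CKB was most like the smooth muscle actin ACTA2 at 0.50, SYNJ1 at 0.59 and the smooth muscle myosin light chain MYL9 at 0.59. CA2 was most like DRAP1 at 0.51, GBE1 at 0.55 and MUL1 at 0.59. The distances of the scarce CKB and CA2 carry more counting error than those of CKM.

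The wider pathways held 54 tested genes in 8 lists, of which 29 were higher and 18 lower in muscle than in tendon, 28 higher and 16 lower in MTJ than in tendon, and 6 higher and 0 lower in MTJ than in muscle. Over all genes tested, 34.6% were higher and 38.8% lower in the first comparison, 32.8% and 34.5% in the second, and 6.11% and 0.502% in the third. The split between muscle and tendon depends on scaling, being 20 higher and 28 lower without TMM factors. Their median log2 difference between muscle and tendon was 0.76, beside -0.13 for all genes. In the fit with 10 libraries, which tested 48 of these genes, 10 were higher and 13 lower in MTJ than in muscle, where 10.9% and 10.2% of all genes were.

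Creatine supply was split. GAMT, the enzyme that completes creatine synthesis, was higher in muscle than in tendon by 3.04 ± 0.46 on the log2 scale (edgeR, adjusted p = 7.3e-05), and the creatine transporter SLC6A8 by 0.98 ± 0.19 (adjusted p = 0.000521), though SLC6A8 stood at -0.26 without TMM factors. GATM, which makes the precursor guanidinoacetate, fell by 0.63 ± 0.16 in muscle relative to tendon (edgeR, adjusted p = 0.00357), with 39.1 to 74.1 CPM in MTJ, 27.7 to 61.7 CPM in muscle and 41.4 to 67.7 CPM in tendon. The unnamed row annotated as the ubiquitous mitochondrial creatine kinase had 0 to 6 counts per library. None of the 3 genes tested in this list passed between MTJ and muscle with 15 libraries, while with 10 GATM was 0.48 higher in MTJ (edgeR, adjusted p = 0.00121).

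Of 5 other adenylate kinases tested, 3 were higher and 0 lower in muscle than in tendon, beside 34.6% and 38.8% of all genes. The mitochondrial AK3 was higher by 2.41 ± 0.17 on the log2 scale (edgeR, adjusted p = 1.8e-07). AK4, also mitochondrial, had a difference of -0.67 ± 0.37 (adjusted p = 0.117), which passed without horse 16 (-1.04, adjusted p = 0.0128). Between MTJ and tendon AK4 stood at -0.94 ± 0.36 (edgeR, adjusted p = 0.0352), a call lost without horse 14, 18 or 20.

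AMP deaminase paralogs went in opposite directions. AMPD2, the form known from non-muscle tissues, had 18.8 ± 4.1 CPM in MTJ, 10.1 ± 1.5 CPM in muscle and 73.0 ± 7.8 CPM in tendon (SD, n = 5 each). It fell by 2.86 ± 0.11 on the log2 scale in muscle relative to tendon (edgeR, adjusted p = 6.9e-09) and was 0.88 ± 0.10 higher in MTJ than in muscle (adjusted p = 0.000403). Its ratio to the mixture was -0.05 ± 0.08 (limma, adjusted p = 0.812). ADSS1 and ADSL, the enzymes that return IMP to AMP, were higher in muscle than in tendon by 2.71 ± 0.39 and 1.65 ± 0.10 on the log2 scale (edgeR, adjusted p = 5.3e-05 and 7.0e-08).

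Among 15 genes of AMP breakdown and purine salvage, 7 were higher and 7 lower in muscle than in tendon, where 34.6% of all genes were called higher and 38.8% lower. The cytosolic 5'-nucleotidase NT5C1A and the GMP reductase GMPR were higher by 4.17 ± 0.66 and 3.17 ± 0.35 on the log2 scale (edgeR, adjusted p = 0.000106 and 4.9e-06). The surface nucleotidase NT5E (CD73), IMPDH1 and adenosine kinase ADK fell by 3.06 ± 0.27, 2.11 ± 0.16 and 1.72 ± 0.13 (adjusted p = 8.3e-07, 2.5e-07 and 2.2e-07). These 3 were also higher in MTJ than in muscle, by 1.39 ± 0.29, 0.68 ± 0.16 and 0.56 ± 0.13 (adjusted p = 0.0122, 0.0265 and 0.0197). Of these calls between MTJ and muscle, that of IMPDH1 was lost without any one horse, that of ADK without horse 14, 18 or 20, and that of NT5E without horse 16 (adjusted p = 0.0602). The ratios of NT5E, IMPDH1 and ADK to the mixture did not pass, at 0.24 ± 0.13, 0.13 ± 0.10 and 0.19 ± 0.08 (limma, adjusted p = 0.438, 0.554 and 0.331). NT5E lay at 1.53 ± 0.29 CPM in MTJ, 0.592 ± 0.140 CPM in muscle and 5.07 ± 1.68 CPM in tendon.

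The catalytic subunits of AMP-activated protein kinase, a sensor of AMP, also differed in direction. PRKAA2 was higher in muscle than in tendon by 3.47 ± 0.60 on the log2 scale (edgeR, adjusted p = 0.000209), and PRKAA1 fell by 0.60 ± 0.11 (adjusted p = 0.000389). PRKAA1 was higher in MTJ than in muscle by 0.46 ± 0.11 (adjusted p = 0.0305), a call lost without horse 14, 16, 18 or 20. Its ratio to the mixture was 0.44 ± 0.09 (limma, adjusted p = 0.0891). The regulatory subunits PRKAB2 and PRKAG3 were higher in muscle than in tendon by 2.40 ± 0.35 and 3.27 ± 0.52 (adjusted p = 5.1e-05 and 0.000108). PRKAB2 had 565 ± 36 CPM in MTJ, 482 ± 63 CPM in muscle and 102 ± 63 CPM in tendon. It was the only pathway gene that passed the test against the mixture, at 0.55 ± 0.09 on the log2 scale (limma, adjusted p = 0.0464). It did not pass when any one horse was left out (adjusted p from 0.0965 to 0.169). With 2 CPM added in place of 0.5, 3 pathway genes passed, and with 0.1 CPM 0 did.

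Of 12 other carbonic anhydrases tested, 7 were higher and 4 lower in muscle than in tendon, beside 34.6% and 38.8% of all genes. The membrane-bound CA14 and the acatalytic CA11 were higher by 3.52 ± 0.38 and 1.94 ± 0.23 on the log2 scale (edgeR, adjusted p = 4.3e-06 and 1.1e-05). The mitochondrial CA5B fell by 3.78 ± 0.20 (adjusted p = 3.4e-08). It had 14.1 ± 4.1 CPM in MTJ, 5.05 ± 2.08 CPM in muscle and 67.4 ± 16.2 CPM in tendon, and was 1.50 ± 0.19 higher in MTJ than in muscle (edgeR, adjusted p = 0.000672). Its ratio to the mixture was -0.02 ± 0.13 (limma, adjusted p = 0.952). The lactate and proton carriers SLC16A1 and SLC16A3 were higher in muscle than in tendon by 2.75 ± 0.20 and 2.20 ± 0.27 (adjusted p = 2.2e-07 and 1.2e-05), while the bicarbonate carrier SLC4A7 stood at -0.17 ± 0.15 (adjusted p = 0.320; -0.34 and 0.0459 without horse 14). Cytoglobin, CYGB, a globin of fibroblasts and related cells and the only other globin tested, fell by 1.58 ± 0.21 in muscle relative to tendon (adjusted p = 2.9e-05).

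**Figure D4:**
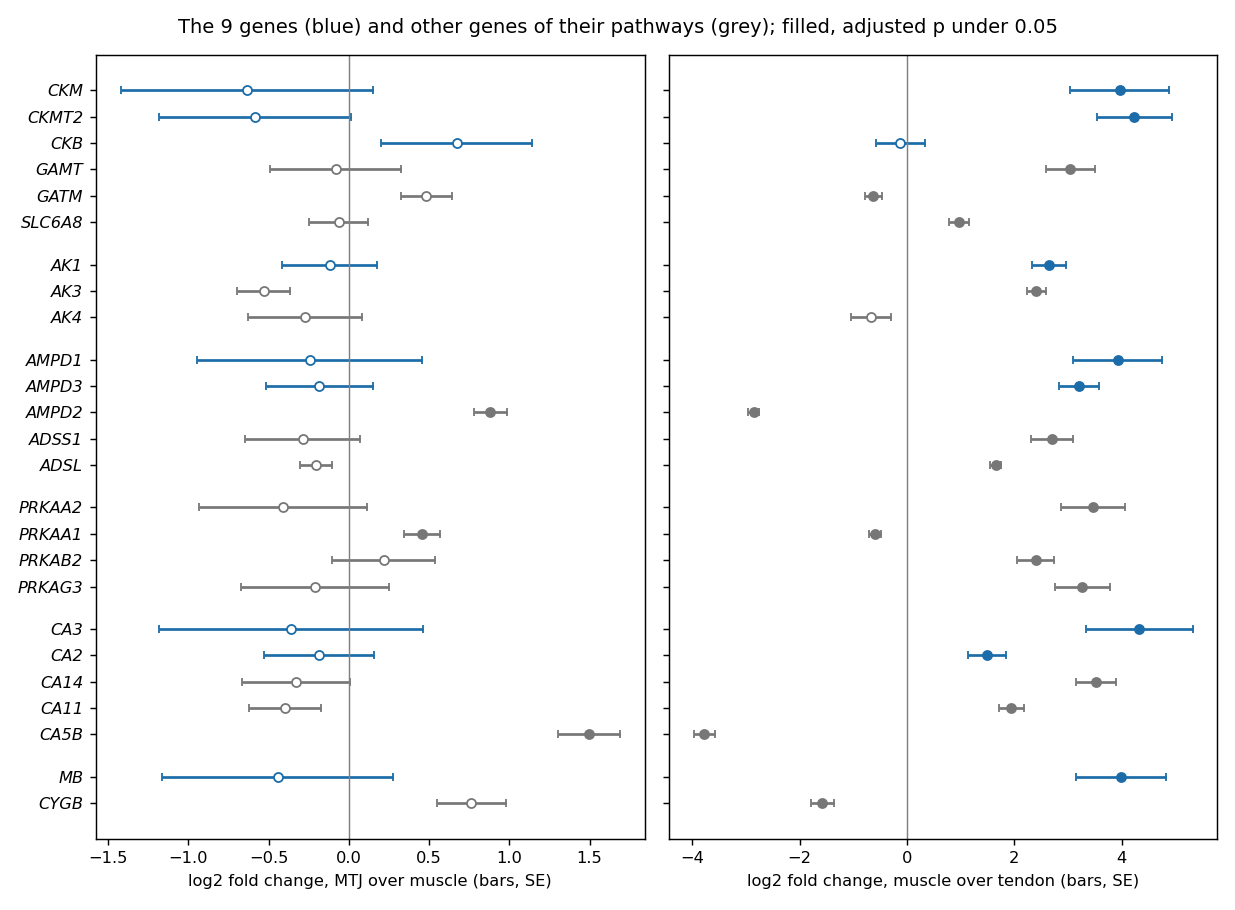
Log2 fold change with SE (edgeR) of MTJ over muscle (left) and muscle over tendon (right) for the 9 genes in blue and named genes of their pathways in grey, grouped by family; filled points have an adjusted p under 0.05. In the right panel AMPD2, CA5B, PRKAA1 and CYGB lie left of 0 while AMPD1, AMPD3, CA3, CA14, PRKAA2 and MB lie right of it, and in the left panel no blue point is filled.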

How the data were processed

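The authors deposited raw read counts per gene for 15 libraries on the horse build EquCab3.0, which is in the submitters' processing notes with DESeq2 1.26.0; the aligner, counter, strand setting and treatment of reads shared by related genes are not stated in those notes. They also deposited gene lengths, muscle and tendon reference gene lists with log2 fold changes and FDR values (adjusted p-values), and log2 junction changes. Of 219 muscle reference genes 217 matched a row by ID.

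From the counts, edgeR 4.0.16 (filterByExpr, TMM, quasi-likelihood test, tissue and horse as terms) was fitted on all 15 libraries, limma 3.58.1 on log2 ratios to the mixture with 0.5 CPM added, both adjusted over 15343 genes, in R 4.3.3, and checked on simulated data; calls are at an adjusted p of 0.05. DESeq2 1.42.0 was an alternative. Horses number the pairs: all 3 sections came from 1 punch, and same-horse correlations of deviations were 0.15 to 0.59. Replicates are single horses. The members and lists were chosen with earlier results of these data known. Named pathway genes are up to 3 per list with the largest mean CPM, plus those called between MTJ and muscle; haemoglobin genes were too low to test. Some genes of these lists are not reported here. No sequence is shown.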

Additional observations from a re-analysis of the deposited data

Results flagged for a closer look

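In 9 of 45 groups of 5 horses, 1 sample lay far from the rest, with a gap to its neighbour above 0.71 of the range. For normally distributed values, chance gives this in about 1 in 20 groups. The CPM and shares were examined untransformed and may not be normal, so that rate may not hold here. Several of the 9 groups share a library. CKB had 18.9 CPM in the MTJ of horse 18, where the next highest was 7.30 CPM, and 11.5 CPM in the muscle of horse 17, where the next was 4.17 CPM. The CKB share of creatine kinase was 0.149% in the MTJ of horse 18, 0.0343% in the muscle of horse 17 and 10.4% in the tendon of horse 18, where the next values were 0.0328%, 0.0145% and 1.25%. CA2 had 9.42 CPM in the muscle of horse 16, with 3.01 CPM next, and its share of the CA2 and CA3 signal was 0.0445% in that muscle and 1.95% in the tendon of horse 18. The log2 ratio of AK1 to the mixture was 0.78 in horse 14, with 0.16 next.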

How the results depend on the processing

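The 8 higher calls among the 9 genes held without each horse in turn and under DESeq2, both for muscle and for MTJ against tendon, and 7 held without the replicate block and without TMM factors, CA2 being lost in each; against tendon, MTJ also lost CA2 without the tendon libraries of horses 14, 16 and 17 (1.05, adjusted p = 0.0560). The count of the 9 genes lower in MTJ than in muscle was 5 with only 10 libraries, by edgeR and by DESeq2, against 0 with 15. Without TMM factors 1 of them, CKB, was lower in muscle than in tendon. Of the pathway genes, SLC6A8 (-0.26 for muscle and -0.091 for MTJ against tendon) and NT5C2 (-0.30 and -0.064) changed sign without TMM factors. Leaving out a horse gave differences between muscle and tendon of -2.97 to -0.38 percentage points for the CKB share, -24.4 to -9.86 for AMPD3 and -0.63 to -0.15 for CA2, the smallest without horse 18 in each. From raw counts the CA2 difference was -1.01 points. Between MTJ and muscle, the CKB share differed by 0.034 points with it and 0.0074 without.

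Counts over all genes moved more. Without TMM factors, 1906 were higher and 11378 lower in muscle than in tendon, 1962 and 10842 in MTJ than in tendon, and 2355 and 12 in MTJ than in muscle. Between MTJ and muscle, 77 lower calls became 287 with DESeq2, 37 without the filter, 13 without the replicate block and 456 without the 3 tendon libraries; the 10 libraries gave 1479 higher and 1381 lower, and 1317 lower with DESeq2. Leaving out a horse gave 565 to 708 higher and 15 to 39 lower. Against the mixture, 122 higher and 33 lower became 63 and 12 with 0.1 CPM added, 281 and 86 with 2 CPM, and 13 and 3 without the filter. Shares from the mean ratio gave 112 lower, the 2 horses left without the 3 tendon libraries gave 0 and 0 (limma), and leaving out a horse gave 7 to 58 higher and 0 to 23 lower. The cause was not tested, other than the fewer samples or genes.

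The 10-library fit and the fit without 3 tendon libraries were chosen with earlier results known, and the DESeq2 fit of 10 libraries, the mixture of 2 horses and the isoform shares of 2 horses after seeing the data. CKB and CA2 rest on 5 to 328 counts per library, so their values carry the most counting error. Leaving out horse 18 changed CKB against the mixture to 0.11.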
